A study of Caenorhabditis elegans with 2 samples.

Results

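Neuropeptide and insulin-like genes were taken as the protein-coding genes whose names start with flp-, nlp- or ins-, together with daf-28, in the Ensembl annotation. The rule gave 141 of 19973 protein-coding genes, namely 31 flp genes, 71 nlp genes and 39 insulin-like genes (the ins genes and daf-28). The data are peaks from chromatin immunoprecipitation with sequencing (ChIP-seq) of ALY-2 tagged with eGFP. They come from whole L1 larvae, the first larval stage of Caenorhabditis elegans, labelled as mixed sex. Both samples are biological replicates of strain OP217, which carries unc-119(ed3) III and the insertion ddIs172 for aly-2, so there is 1 group and no comparison between conditions. As an ALY/REF protein, ALY-2 belongs to the RNA-binding adaptors that act in nuclear export of messenger RNA. The antibody label reads aly-2 while the description gives the eGFP fusion. The sources used here do not give the promoter of the insertion or the number of animals. Genes are identified by name alone here, and no RNA was measured, so whether a given member was transcribed in these larvae is not known from these files.

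Neuropeptides are cut from longer precursor proteins, modified, packed into dense core vesicles and released to act on receptors of other cells. The flp genes encode FMRFamide-like peptides, which end in arginine and phenylalanine amide, while the nlp genes are a mixed class of other peptide precursors that includes antimicrobial peptides of the epidermis. The insulin-like peptides are ligands of the receptor DAF-2, some as agonists and some as antagonists, and through it they bear on larval arrest, dauer entry and lifespan. Most of these genes are known for expression in small sets of neurons, and several also in intestine or epidermis. In whole larvae, few cells with the protein at a gene and little protein in many cells cannot be told apart.

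The authors deposited a final list of 1446 peaks that passed their threshold on the irreproducible discovery rate, a longer pooled list of 15675 peaks called over both replicates, and 1 list per replicate with 26798 and 25463 peaks. Every final peak is also in the pooled list, and the other 14229 pooled peaks are called lower-signal peaks here. The authors describe the pooled and replicate lists as peaks and background. Each peak carries a signal value from the authors' caller, on a scale that is not given, which ranged from 42.7 to 515.5 in the final list and from 16.1 to 42.7 in the lower-signal peaks. The authors' −log10 q-value ranged from 2.5 to 3.12 in the final list and from 0.0177 to 2.51 in the lower-signal peaks. A low value means weak evidence for the peak. Rank 1 is the highest signal of a list. A gene was counted where the summit, the single base at the top of a peak, lay in its promoter window (from 1000 bp before the annotated 5′ end to 200 bp after it), its gene body, or its 3′ end window (200 bp inside to 500 bp beyond the annotated 3′ end).

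Among the promoter summits upstream of members, 4 of the stronger ones by signal are shown. The upstream summit of nlp-4, with a signal of 41.3, was stronger than all of these but ins-39, and its sequence is not shown. The sequences are on WBcel235 (ce11), 5′ to 3′ on the strand of the member. Capitals mark the 21 bases around the summit, except at flp-23, where they mark the B box of a transfer RNA gene, the internal element that directs RNA polymerase III, found as a match to its core GTTCGANTC on the strand opposite to flp-23. The ins-39 stretch is chrX:1344914-1345114, that of flp-23 chrIII:8650297-8650497, that of nlp-82 chrII:9254288-9254462, ended at the base before the gene, and that of nlp-24 chrV:11616018-11616218.
ins-39: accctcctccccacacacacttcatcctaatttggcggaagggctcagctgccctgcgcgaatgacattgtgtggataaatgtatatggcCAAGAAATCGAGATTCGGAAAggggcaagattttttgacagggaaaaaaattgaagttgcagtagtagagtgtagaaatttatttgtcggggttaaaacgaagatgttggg
flp-23: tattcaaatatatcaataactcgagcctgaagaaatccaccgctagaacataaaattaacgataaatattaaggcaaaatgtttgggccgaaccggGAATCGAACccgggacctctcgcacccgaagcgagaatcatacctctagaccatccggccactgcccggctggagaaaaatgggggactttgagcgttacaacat
nlp-82: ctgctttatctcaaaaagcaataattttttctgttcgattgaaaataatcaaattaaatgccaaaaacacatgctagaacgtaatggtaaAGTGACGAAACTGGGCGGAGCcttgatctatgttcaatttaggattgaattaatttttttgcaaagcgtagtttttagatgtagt
nlp-24: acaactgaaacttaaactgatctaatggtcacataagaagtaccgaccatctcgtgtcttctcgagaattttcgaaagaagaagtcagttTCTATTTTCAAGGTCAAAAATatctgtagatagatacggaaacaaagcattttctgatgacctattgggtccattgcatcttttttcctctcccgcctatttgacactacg

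One member, the insulin-like gene ins-39, had a final summit in its promoter window, which is 0.709% of the 141 members (exact 95% interval 0.0180 to 3.89). Of all protein-coding genes, 5.58% had one. No flp gene (0 of 31) and no nlp gene (0 of 71) had one, counts that allow shares of up to 9.68% and 4.23% by the limit of 3 counts, and up to 11.2% and 5.06% by the exact 95% interval. The intervals cover counting error only. In each replicate alone, the 1446 peaks of highest signal again gave 1 member, ins-39 (0.709% ± 0, SD, n = 2). Members had uncrowded promoters, since 12 of 141 (8.51%) held the 5′ end of another coding gene in the window against 21.3% of all coding genes, and 34 members (24.1%) lay on X against 13.7%. Both features go with fewer final summits among all coding genes, where 3.54% of the 15724 genes with no other 5′ end in the window had one, and 2.12% of those on X. At the rates of coding genes on the same chromosome and with the same window sharing, 5.98 members would carry a final summit, against the 1 that did.

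The ins-39 summit stood alone. The gene lies on X from 1343758 to 1344421 on the minus strand, and the summit at 1345014 lay 593 bp upstream of its 5′ end, in the sequence printed above. The peak had a signal of 113.3 and rank 135 in the pooled list. In replicate 1 it had a signal of 53.7 and rank 161, and in replicate 2 a signal of 58.8 and rank 134, with summits 10 and 2 bp from the pooled one. It was thus among the strongest peaks of both replicates. No other annotated gene of any biotype lay within 3000 bp of the summit. The 201 bp around it had 44.3% G and C, against a median of 39.3% in final windows and 34.3% in lower-signal windows. With a window that starts 500 bp upstream, ins-39 was no longer counted and no member had a final promoter summit.

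**Figure D1:**
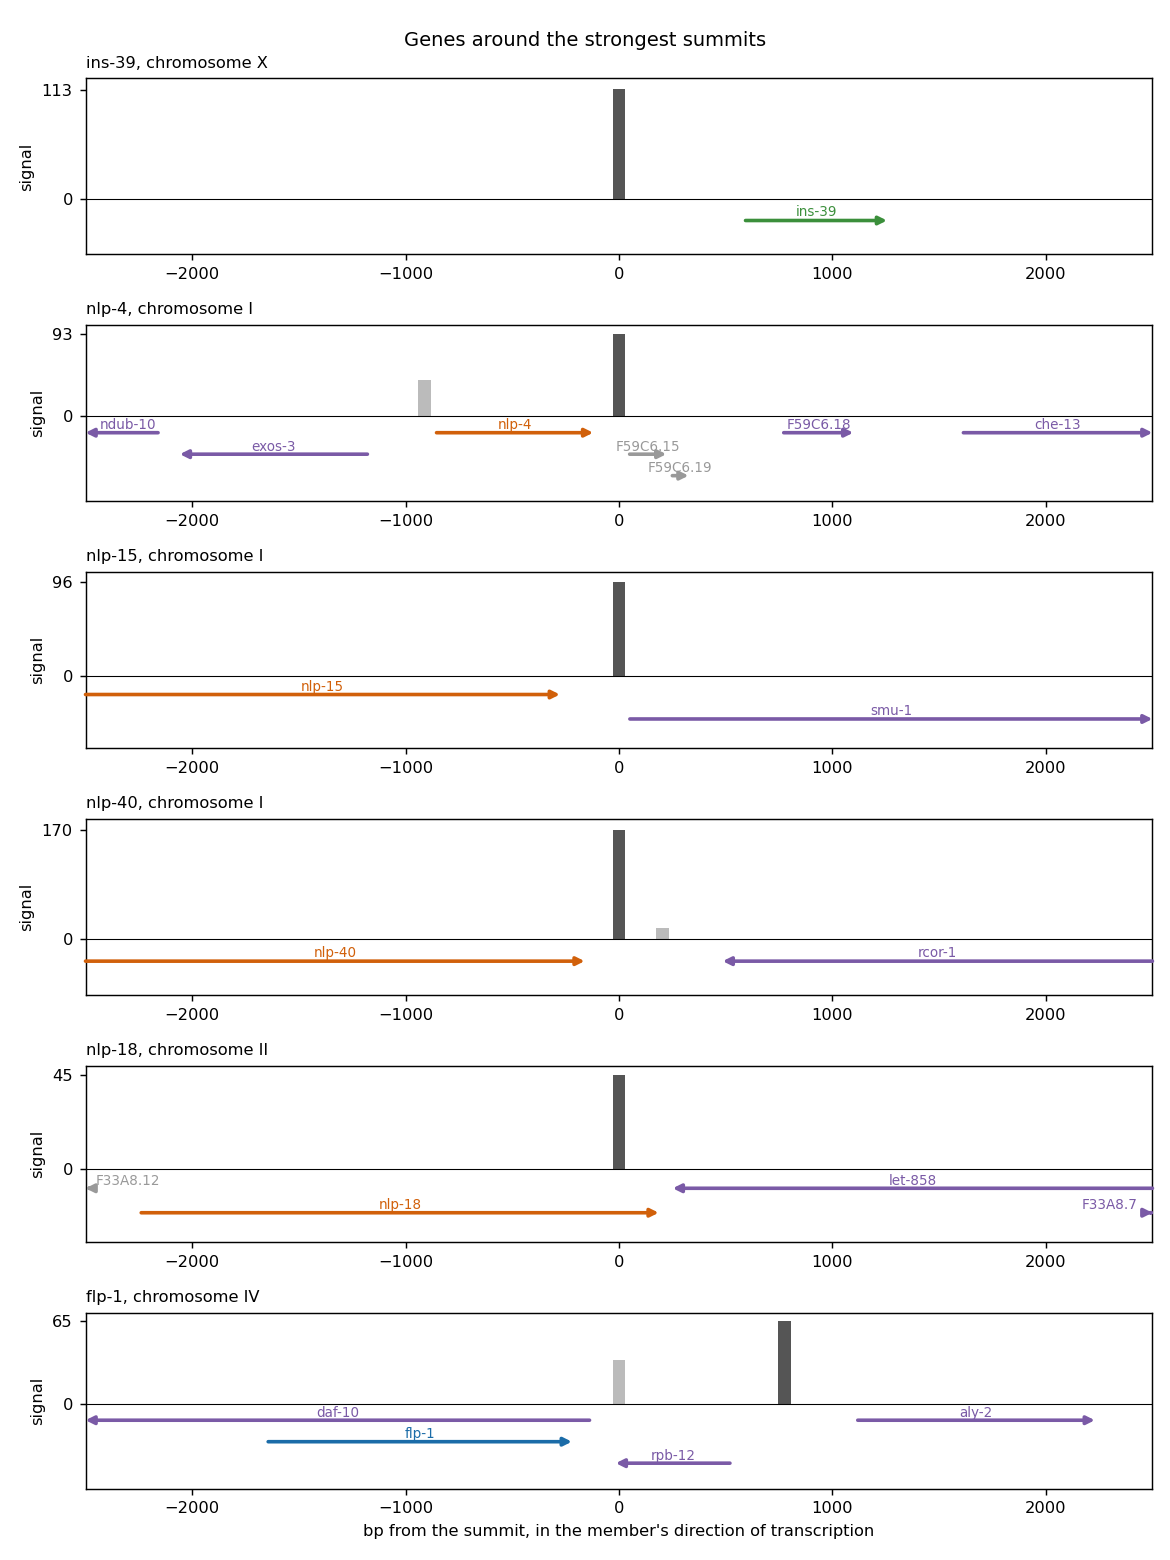
Maps of the 6 strongest loci, with bp from the summit on the x axis in the member's direction of transcription, the authors' pooled signal on the y axis, dark bars for final and light bars for lower-signal summits, and arrows for genes (member in colour, other coding genes purple, non-coding genes grey). The summit at ins-39 has no other gene near it, whereas those at nlp-4, nlp-15, nlp-40, nlp-18 and flp-1 lie at the 3′ end of the member with another gene close by.

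Final summits at the 3′ end were found at 4 members, nlp-40, nlp-15, nlp-4 and nlp-18, or 2.84% (exact 95% interval 0.778 to 7.10). This is near the 3.15% of all protein-coding genes with a final summit there. All 4 were nlp genes, 5.63% of that family, with 0 of 31 flp genes and 0 of 39 insulin-like genes. The exact 95% intervals were 1.56 to 13.8% for nlp, 0 to 11.2% for flp and 0 to 9.025% for insulin-like genes. Each holds the 3.15% of all coding genes, so these counts do not set the families apart from that background. The replicates alone gave 4 and 3 members (2.48% ± 0.502, SD, n = 2). Unlike ins-39, each of these genes had another annotated gene within 500 bp of the summit.

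The strongest summit at any member was that of nlp-40, which encodes a peptide secreted by the intestine to time the defecation motor programme. The gene lies on chromosome I from 11495 to 16837, and the summit at 16998 lay 161 bp past its 3′ end with a signal of 169.9 and rank 40. The replicates gave signals of 81.3 and 88.0, with ranks 54 and 43. The neighbour rcor-1, which encodes a CoREST-type corepressor, converges on nlp-40, so that the summit lay between both 3′ ends, 486 bp past that of rcor-1. The window of 201 bp around the summit was 1 of the 141 final windows that held CTGCGTCTC, a word chosen after the sequences were seen. Searched on both strands in 201 bp, the word was present in 9.75% of final windows and 2.40% of lower-signal windows. Of the 54 distinct pooled summits at members, this was the only one with it. A lower-signal summit of rank 13921 lay at 17203, 366 bp past the nlp-40 end.

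The summit past nlp-15, which encodes orcokinin-like peptides, lay just before another gene. It was at 12995752 on chromosome I, 277 bp past the 3′ end of nlp-15 and 51 bp upstream of the 5′ end of smu-1, which encodes a protein of pre-mRNA splicing transcribed in the same direction. Its signal was 96.3 and its rank 207. In replicate 1 the signal was 52.3 (rank 170), and in replicate 2 it was 45.6 (rank 303). This summit is thus counted in the promoter window of smu-1 as well as at the nlp-15 end. Inside the 7245 bp of nlp-15, lower-signal summits lay in introns 263 and 3154 bp from the 5′ end, with ranks 8788 and 10746.

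The gene nlp-4 had summits on both sides. It lies on chromosome I from 10517321 to 10518055 on the minus strand. The final summit at 10517200 lay 121 bp past its 3′ end and 50 bp upstream of the snoRNA gene F59C6.15, which is transcribed in the same direction. That peak had a signal of 93.3 and rank 221, with a signal of 43.6 and rank 295 in replicate 1 and a signal of 55.2 and rank 173 in replicate 2. The replicate 2 summit lay 138 bp further past nlp-4, within the snoRNA gene F59C6.15. A second summit, at 10518111, lay 56 bp upstream of the nlp-4 5′ end and 268 bp upstream of exos-3, which encodes a subunit of the RNA exosome and is transcribed away from nlp-4. With a signal of 41.3 and rank 1548 it was just under the lowest final signal of 42.7. The replicates ranked it 1992 and 1794, and no other lower-signal summit at a member ranked as high.

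The weakest of the final summits was that of nlp-18, just inside the threshold. It lay on chromosome II at 11028158, in the 3′ UTR of the gene, 186 bp before its 3′ end, and was also the only final summit in the body of a member. Its signal was 44.7, with rank 1319 in the pooled list, 1264 in replicate 1 and 1777 in replicate 2. It would not have been among the 1446 strongest peaks of replicate 2 alone, so that without replicate 1 no member had a final summit in the gene body. The convergent gene let-858, which encodes a splicing factor, ended 252 bp from the summit. One member of 141 (0.709%) with a final summit in the body compares with 2.32% of all coding genes. The members are short, with a median of 903 bp against 2027 bp. Per 100 kb of gene body there were 0.504 final summits at members and 0.850 at all coding genes.

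**Figure D2:**
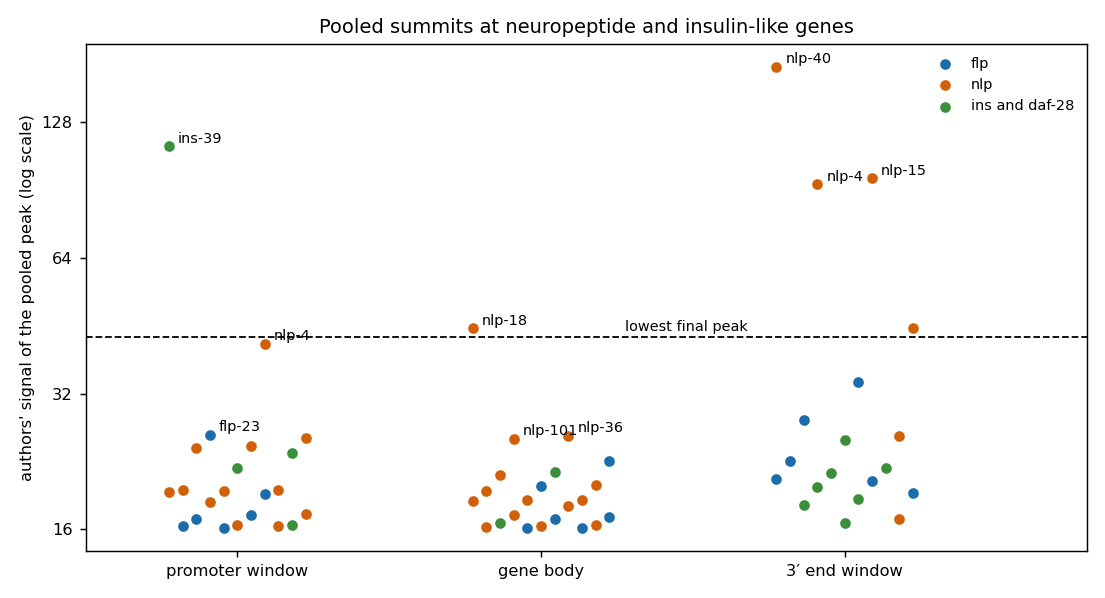
Authors' signal of each pooled peak (y axis, log scale) whose summit lay in the promoter window, gene body or 3′ end window of a member (x axis), with 1 point per gene and summit, coloured by family. The dashed line is the lowest final signal of 42.7, and above it lie ins-39 in the promoter, nlp-18 in the body and at the 3′ end, and nlp-40, nlp-15 and nlp-4 at the 3′ end.

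A lower-signal summit lay in the promoter window of 19 members, or 13.5% (exact 95% interval 8.31 to 20.2), against 20.2% of all coding genes, a share that the interval just reaches. At the rates of the same chromosome and window sharing, 27.2 members would have one. Of the lower-signal summits in member promoter windows, that of nlp-4 had a −log10 q-value of 2.09. The next highest was 0.43, at flp-23, so that all but nlp-4 had weak support by the authors' own score. The replicates alone gave 16 and 22 members (13.5% ± 3.01, SD, n = 2), and in the upper 50% of pooled peaks by signal 7 members did. The highest-ranked promoter summit of the 20 members with a pooled one (14.2%, against 24.9% of all coding genes) had a median rank of 9464, against 5011 over coding genes with one. Both medians include final summits. Over lower-signal promoter peaks alone, the median rank was 9611 for members and 7690 for all coding genes.

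Among flp genes, 5 of 31 (16.1%, exact 95% interval 5.45 to 33.7) had a lower-signal promoter summit, namely flp-23, flp-24, flp-22, flp-17 and flp-9. The strongest, at flp-23, had a signal of 25.9 and rank 4473, with ranks 3863 in replicate 1 and 11664 in replicate 2. Its summit lay 370 bp upstream of flp-23 and inside the tRNA gene WBGene00023002, on chromosome III from 8650381 to 8650452 on the opposite strand, whose B box is in capitals in the sequence above. Searched on both strands, this core was present in 1.66% of final windows of 201 bp, 0.689% of lower-signal windows and 1 of the 54 member windows. The word was chosen after the sequences were seen. Because tRNA genes exist in near-identical copies, how many of the reads come from this locus is uncertain. The other flp summits had ranks from 9815 to 15620, and each overlapped a peak of replicate 2 and none of replicate 1. Without replicate 2 the count of flp genes was accordingly 2, against 6 without replicate 1.

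Among nlp genes, 11 of 71 (15.5%, exact 95% interval 7.996 to 26.03) had a lower-signal promoter summit. After nlp-4 came nlp-82 with a signal of 25.5, nlp-24 with 24.5 and nlp-16 with 24.2, all with an overlapping peak in each replicate. The nlp-82 summit lay 75 bp upstream of the gene, with rank 4434 in replicate 2 and an overlapping peak of rank 16852 in replicate 1 whose own summit was 172 bp away. The nlp-24 summit lay 258 bp upstream and was ranked 4795 in replicate 2, while the overlapping replicate 1 peak was ranked 21397 with its summit 356 bp away. These peaks thus stood higher in replicate 2. The other 7 genes, nlp-2, nlp-27, nlp-3, nlp-61, nlp-25, nlp-35 and nlp-49, had best ranks from 9360 to 15214, within the weaker part of the pooled list.

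The epidermal antimicrobial nlp genes, nlp-24 to nlp-34, are induced by fungal infection and wounding and several lie in a cluster on chromosome V. Of these 11 genes, 3 had a lower-signal promoter summit, nlp-24, nlp-27 and nlp-25, and 0 had a final one, against 20.2% and 5.58% of all coding genes. Counts this small do not set the group apart from that background. The nlp-25 summit lay 21 bp upstream of the gene with rank 11077, and was matched in replicate 1 at rank 3304 and not in replicate 2. The well-studied antimicrobial gene nlp-29 had no pooled summit in any of its windows. Its promoter held replicate 1 summits, the best of them at rank 10465, and none of replicate 2.

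Among insulin-like genes, 3 of 39 (7.69%, exact 95% interval 1.62 to 20.9) had a lower-signal promoter summit, namely ins-33, ins-15 and ins-14. The ins-33 summit lay 595 bp upstream with a signal of 23.6, and was ranked 11303 and 6164 in the replicates. The ins-15 summit, ranked 6994, lay 334 bp upstream of ins-15 and 353 bp past the 3′ end of ins-14, since both genes are in tandem on chromosome II. It is counted at both. The ins-14 promoter summit, ranked 14993, lay 184 bp upstream of the divergent gene F41G3.5. This family's count moved from 3 to 5 without replicate 1 and to 1 with the 500 bp window.

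**Figure D3:**
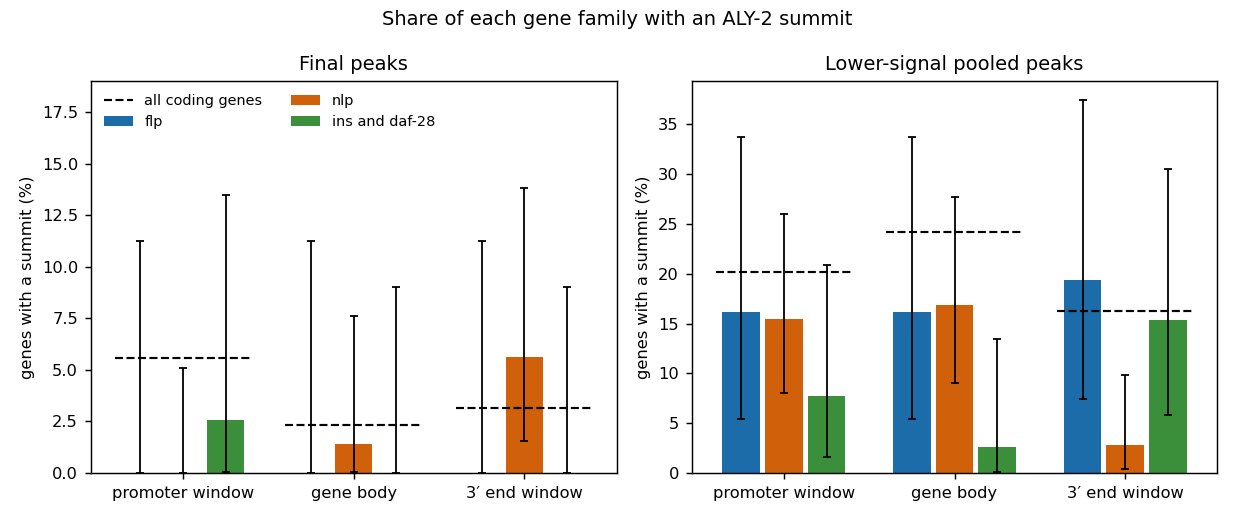
Percent of genes (y axis) of the flp, nlp and insulin-like families with a final summit (left) or a lower-signal pooled summit (right) in each window (x axis), with exact 95% intervals as error bars and the share of all coding genes as dashed lines. Intervals of the 3 families overlap in each window, and the nlp promoter bar is at 0 for final peaks with its interval below the line of 5.58%. For lower-signal peaks, the nlp interval at the 3′ end and the insulin-like interval in the gene body also lie below their lines. The lines are not adjusted for chromosome, window sharing or gene length.

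The insulin-like ligands with the best-known roles had no pooled summit in the promoter or gene body. Of 6 listed agonists of DAF-2, namely daf-28, ins-3, ins-4, ins-6, ins-7 and ins-35, 0 had a final or lower-signal summit in any window. Of all coding genes, 9.10% had a final and 43.9% any pooled summit in at least 1 window. With 6 genes, the count does not set the agonists apart from that background. The promoter of daf-28, whose product keeps larvae out of dauer, held a replicate 1 summit of rank 26298 and none of replicate 2. That of ins-4 held 1 of rank 22430 in replicate 1, that of ins-6 1 of rank 20151 in replicate 2, that of ins-7 1 of rank 23588 in replicate 1, and that of ins-3 1 of rank 22953 in replicate 1. All 5 are in the weaker part of their lists, and none was repeated by the other replicate. The promoter of ins-35 held none in either replicate. Of the antagonists ins-1, ins-17 and ins-18, the last had a lower-signal summit 247 bp past its 3′ end, of rank 11436. Its promoter held a summit in both replicate lists, of ranks 18023 and 18349, and no pooled summit, while ins-1 had no summit in any window of any list.

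Of the well-known neuropeptide genes, flp-21, a ligand gene for the receptor NPR-1, also had no summit in any window of any list. The gene nlp-12, for cholecystokinin-like peptides, had 1 promoter summit in replicate 2 of rank 17045 and none in replicate 1 or the pooled list. The gene flp-18 had a pooled summit of rank 15606 in an intron, matched in replicate 1 at rank 5287 and not in replicate 2.

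Gene bodies and 3′ ends of members held lower-signal summits in similar numbers. A lower-signal summit lay in the body of 18 members (12.8%, exact 95% interval 7.75 to 19.4), against 24.2% of all coding genes. Per 100 kb of gene body, members had 10.6 and all coding genes 13.7. The insulin-like genes, with a median length of 655 bp, had 1 of 39, ins-36. The strongest such summits after nlp-18 were at nlp-36, nlp-101 and flp-7, with signals of 25.8, 25.5 and 22.7, and the nlp-101 summit lay in coding sequence. Those of flp-5 and ins-36 were ranked 8903 and 7312.

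At the 3′ end, 14 members (9.93%, exact 95% interval 5.54 to 16.1) had a lower-signal summit, against 16.2% of all coding genes. They were 6 of 31 flp genes, 2 of 71 nlp genes and 6 of 39 insulin-like genes. The nlp-36 summit lay in its 3′ UTR, 48 bp before the 3′ end, and 38 bp past the 3′ end of the convergent gene dars-1, for aspartyl-tRNA synthetase. The flp-27 summit, with a signal of 27.99, lay 12 bp past its 3′ end within the larger gene C25H3.11, and was ranked 20326 in replicate 1 and 2405 in replicate 2. Of the insulin-like genes, ins-12 led with a signal of 25.3. The summit 197 bp past ins-13 had a signal of 21.3 and lay 42 bp upstream of the spliced leader gene sls-2.3, which has near-identical copies.

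The strongest lower-signal summit at a 3′ end was that of flp-1, a gene for FMRFamide-like peptides that act on locomotion, and it lies near the native aly-2 gene, with rpb-12 between them. The gene spans 9144705 to 9146128 on chromosome IV, inside the span of daf-10, which encodes a protein of ciliary transport. The summit at 9146349 lay 221 bp past flp-1, 138 bp upstream of daf-10 and 15 bp inside the 3′ end of rpb-12, a gene for an RNA polymerase subunit. Its signal was 33.97 with rank 2400, and it was ranked 3179 and 2905 in the replicates. The 5′ end of aly-2 lay 1340 bp past the flp-1 3′ end, and a final peak with a signal of 64.6 and rank 585 lay 343 bp upstream of aly-2. The sources used here do not say whether the inserted copy of aly-2 holds flp-1 sequence, and its part in this summit was not tested.

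The final list was itself thresholded on agreement between the replicates, so the overlap of its 5 member peaks with both replicate lists is no finding. Among the 22 pooled peaks in promoter windows, 13 did (59.1%, exact 95% interval 36.4 to 79.3), and all of those in the upper 50% of pooled peaks. Among lower-signal peaks alone, 12 of 21 in member promoters did (57.1%), against 66.2% in all coding promoters, 9 of 21 in member gene bodies (42.9%), against 61.7%, and 12 of 15 at member 3′ ends (80.0%), against 68.3%. In the whole replicate lists, 37 members had a promoter summit in replicate 1 and 35 in replicate 2 (25.5% ± 1.00, SD, n = 2), against 34.9% and 33.7% of all coding genes, but 16 members (11.3%) had one in both, against 21.5%. Of those 16, nlp-33, nlp-66, nlp-41, flp-27 and ins-18 had no pooled promoter summit. At 3′ ends, replicate 1 gave 35 members and replicate 2 gave 24, against 26.1% and 25.9% of all coding genes (24.8% and 17.02% of members). These lists hold background peaks, and the depth of each library is unknown.

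**Figure D4:**
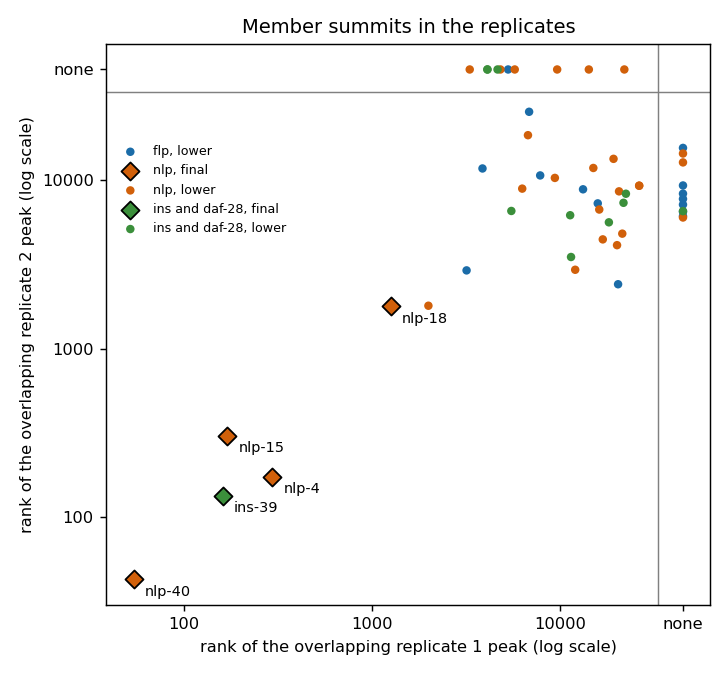
Rank of the overlapping peak in replicate 1 (x axis) and replicate 2 (y axis), both on log scales, for each distinct pooled summit at a member, with diamonds for final and circles for lower-signal peaks and "none" where no peak overlapped. The summits of nlp-40, ins-39, nlp-4 and nlp-15 rank within the first 303 of both lists, nlp-18 is at 1264 and 1777, and the lower-signal summits spread widely.

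In all, 5 members (3.55%) had a final summit in any window and 43 (30.5%) had any pooled summit, against 9.10% and 43.9% of all coding genes, leaving 98 members with none. The distance from the 5′ end to the nearest final summit anywhere had a median of 30982 bp for members and 29868 bp for all coding genes. The lower quartile was 16270 bp for members, against 10483 bp, while the upper quartile was 53246 bp, against 66887 bp. For lower-signal summits the medians were 3329 and 3165 bp. The medians were thus close to each other, and no test of them was made. By family, the median distance to a lower-signal summit was 2203 bp for flp, 2379 bp for nlp and 4968 bp for insulin-like genes.

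**Figure D5:**
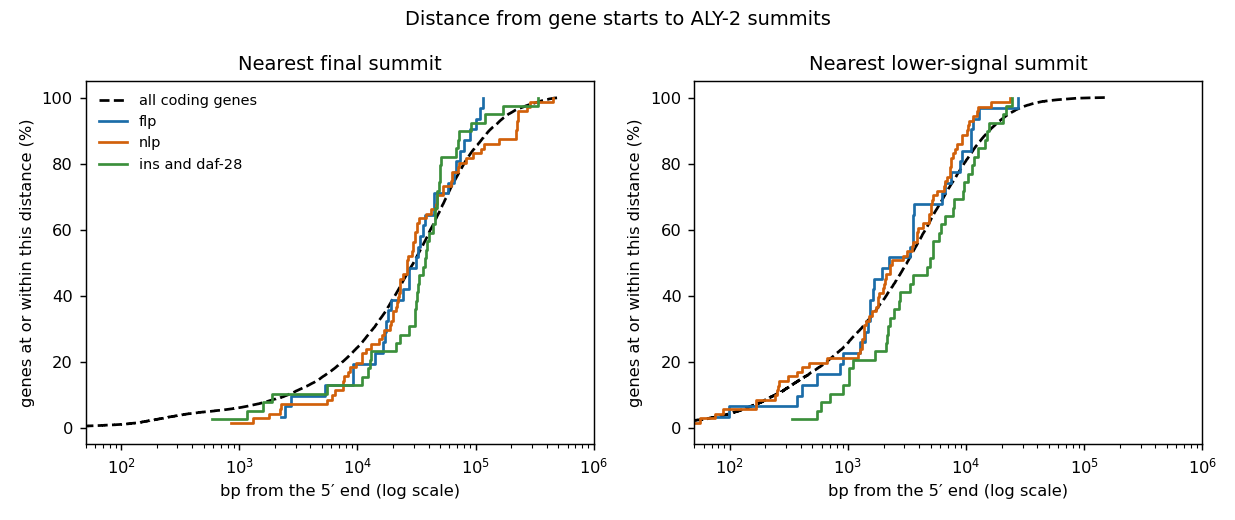
Cumulative percent of genes (y axis) at or within a distance in bp from the 5′ end (x axis, log scale) to the nearest final (left) or lower-signal (right) summit, by family, with all coding genes as a dashed line. The curves for final summits lie below the dashed line at its lower quartile of 10483 bp and above it at its upper quartile of 66887 bp. The medians are 31532 bp for flp, 26516 bp for nlp and 37027 bp for insulin-like genes, against 29868 bp.

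Genes that process and receive these peptides were also examined, from lists chosen for their role in the pathway. The shares of all coding genes to read them against are 5.58% for a final and 20.2% for a lower-signal promoter summit, and no list was tested. Of 19 genes for peptide processing and vesicle release, 2 had a final promoter summit and 7 a lower-signal one. They were led by aex-5, for a proprotein convertase that acts in the intestine in the defecation programme, with a signal of 176.9 and rank 34 on chromosome I, ranked 14 and 59 in the replicates. Next was sbt-1, for the 7B2 chaperone of a convertase, with a signal of 43.2, ranked 614 in replicate 1 and 10336 in replicate 2 at a summit shared with num-1, followed by unc-18 and snb-1, both of vesicle fusion, with 34.4 and 30.03. Of 105 neuropeptide receptor genes, 1 had a final promoter summit, sprr-2, with a signal of 69.6 and rank 484, and 12 a lower-signal one, among them npr-23, npr-15 and frpr-14.

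Of 17 genes of insulin signalling, 2 had a final promoter summit and 9 a lower-signal one. These counts overlap, since a gene with both is counted in each. The final ones were ftt-2, for a 14-3-3 protein that binds DAF-16, with a signal of 55.5, and daf-15, the Raptor homologue, with a signal of 43.7. The other 14-3-3 gene, par-5, followed with 38.1, and rict-1, the Rictor homologue, with 33.2. The gene daf-16, for the FOXO transcription factor of the pathway and named here after its values were seen, had a lower-signal one of rank 6647 that overlapped a peak in replicate 2 and none in replicate 1. Of 19 other secreted signal genes, 0 had a final promoter summit and 4 a lower-signal one, against 5.58% and 20.2% of all coding genes. The 4 were cnc-3, cnc-11, cnc-7 and cnc-10, caenacin genes of epidermal defence, a family that the list was chosen to include. Those of cnc-3 and cnc-10 overlapped no peak of replicate 2.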

How the data were processed

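Per the labels and the deposited description files, the authors called peaks on ce11 in each replicate and over both, against a control alignment, and thresholded them on the irreproducible discovery rate. No source used here gives the caller, its version, the threshold or the read depth. The deposited signal of each peak and its −log10 q-value are the authors' own. The signal was used only to describe and rank peaks within a list, and the q-value only to describe them. Libraries were 150 to 350 bp in size. Gene models were those of Ensembl release 115 on WBcel235, and sequences were read from RefSeq's copy of it, within whose chromosomes all peaks lie. Summits were assigned to windows with Python 3.11.15, pandas 2.3.3 and scipy 1.17.1, checked on simulated summits. Overlaps needed 1 bp. Intervals are exact (Clopper-Pearson, 95%), and a count of 0 allows 3 counts.

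The members, lists, windows and tests were chosen with earlier results of these data known, so no test of a list was made. By the naming rule, the text names members with a final summit, the 20 strongest in the promoter, the leading members of each family in the other windows, a set of well-known members, and up to 4 genes of each pathway list. With 1 group, the spread is that between 2 replicates, and its technical and biological parts cannot be told apart. Lists on ce10 were not used.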

Additional observations from a re-analysis of the deposited data

How the results depend on the processing

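In the upper 50% of pooled peaks, lower-signal summits lay in the promoter of 7 members (1 flp, 4 nlp), the body of 5 and the 3′ end of 7, 100% of the promoter peaks were in both replicates, and the median best rank was 4911. With the window from 500 bp upstream, 0 members kept a final promoter summit and 1 insulin-like gene a lower-signal one. For final body summits, the count was 0 in the upper 50% of final peaks and 3 where any overlap of the peak counted. Leaving out 1 replicate gave 0 to 1 members with a final body summit, and 2 to 6 flp and 4 to 5 insulin-like genes with a lower-signal promoter summit. The median best rank was then 6742 to 8273. These are ranks within the list of the remaining replicate, so they cannot be set against the 9464 of the pooled list. The causes were not tested, except that a list cut to its stronger peaks holds fewer. The other counts stayed within 1.5 times of those reported under each alternative run. Depth is unknown, so no limit on a single peak can be given.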
